A study of Mus musculus with 6 samples.

Results

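The 42 genes described here encode proteins that copy the genome in S phase, make its deoxynucleotides or control entry into S phase. They were taken by gene symbol from a list of G1/S and S phase genes, and no threshold on their values was used. The list was, however, chosen with earlier results of these data known. All 42 were found among the 25700 gene identifiers of the data, and all 42 are among the 12433 genes that passed a filter on low counts and were tested. The study asked whether heme turns bone marrow–derived macrophages (BMDMs) into cells that resemble tumor-associated macrophages. Marrow from C57BL/6J mice, 8 to 10 weeks of age, was cultured with M-CSF (100 ng/ml), the growth factor that drives marrow progenitors to become macrophages, and either heme-albumin at 300 μM (heme group) or the albumin vehicle (control group) was added on day 3. RNA of 3 heme and 3 control cultures was sequenced on day 7, and each library came from 1 mouse. No allele or transgene differed between the groups, every culture grew in M-CSF, and no sorting of the cells before lysis is named.

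DNA replication is prepared in G1, when the origin recognition complex with Cdc6 and Cdt1 loads the ring-shaped Mcm helicase onto DNA. At the start of S phase, Cdc45 and the GINS complex join the ring and turn it into an active helicase. Primase and the DNA polymerases then copy both strands behind it, held by the sliding clamp Pcna, which the RFC complex loads, and the precursors come from ribonucleotide reductase and the thymidylate enzymes. Most of these genes are known targets of E2F transcription factors and are transcribed most around the G1/S boundary. M-CSF is known as the mitogen of cultured macrophages, which leave the cell cycle as they mature.

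The libraries held 27201038 to 32366848 counts in the heme group and 30509099 to 32994595 in the control group. Levels are given as TMM-normalized CPM, counts relative to an effective library size, always in the order of replicates 1, 2 and 3. A gene was called when edgeR's quasi-likelihood test gave a Benjamini-Hochberg adjusted p under 0.05 over all tested genes. Of all tested genes, 30.8% were called lower and 31.7% higher with heme, 62.5% in all. With scaling by raw library size alone the median log2 fold change over all tested genes became -0.22, and the shares were 46.8% lower and 20.8% higher, so each change below is relative to TMM. The labelled cell type was checked on 10 macrophage markers, of which 7 were lower and 1 higher and whose summed level was 47685 to 50870 CPM in heme libraries and 48243 to 56208 CPM in control libraries. Markers of myeloid progenitors, which can divide, were higher with heme in 8 of 9 tested genes, with a summed level of 83.0 to 105 CPM in heme libraries against 3.67 to 5.41 CPM in control libraries. Kit, the marker not called, went the other way, with 0.343 CPM on average with heme and 0.590 CPM in controls. The granule protease gene Elane had no count in the control libraries. Of 9 tested neutrophil markers 7 were higher and 1 lower, and their summed level was 1354 to 1505 CPM in heme libraries against 90.8 to 158 CPM in control libraries. Mmp8 made up most of the sum in heme libraries (1299.9, 1377 and 1211 CPM, against 28.8, 36.4 and 27.2 CPM in control libraries), and Csf3r, the marker called lower, most of it in control libraries (32.9, 41.8 and 31.9 CPM in heme libraries, against 50.8, 106 and 68.9 CPM in control libraries). In tumor spheroids, the paper lists Mmp8 among the genes that separated heme-exposed macrophages from the others. The other marker lists were low, with summed levels of 1.14 to 1.68 CPM in heme and 0.884 to 1.28 CPM in control libraries for erythroid cells, 1.06 to 1.46 CPM and 1.71 to 2.35 CPM for lymphoid cells, and 4.07 to 4.18 CPM and 3.16 to 4.23 CPM for stromal and endothelial cells. The T cell markers Cd3e and Cd3g had no count in any library. Whether other cell types were present, and their part in the results below, was not tested. In bulk RNA fewer dividing cells and less RNA per dividing cell cannot be told apart.

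The control libraries lay far apart for these genes. Control 1 was the highest of the 3 control libraries for 41 of the 42 genes and the highest of all 6 libraries for 38, whereas among all tested genes it was the highest control in 37.5%. The median of its level over the mean of the other control libraries was 1.62 for the 42 genes and 0.995 for all tested genes. Control 2 was the lowest control for 37 of the 42, against 4514 of all 12433 tested genes. This order was not particular to the 42. Among 31 mitosis and spindle genes, control 1 was the highest control for 27 (87.1%) and control 2 the lowest for 27. The heme libraries lay closer together, with a median coefficient of variation of 9.51% for the 42 genes, against 33% in the control libraries. For all tested genes the medians were 6.23% in heme libraries and 8.93% in control libraries. The heme libraries also kept an order, with heme 1 lowest of them for 31 of the 42 genes and heme 2 highest for 32. Among all 12433 tested genes these counts were 4245 and 4584, and among the 31 mitosis and spindle genes 29 and 25. Because control 1 stood farthest from the others, the main results are given with and without it.

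Heme-treated BMDM cultures had lower relative mRNA levels of most replication genes than control cultures, but by unequal amounts, and Pcna rose. Of the 42 genes, 24 fell (57.1%, against 30.8% of all tested genes), 1 rose (2.38%, against 31.7%) and 17 missed the threshold. Their median log2 fold change (heme over control) was -0.61, from -1.69 for the thymidine kinase gene Tk1 to 0.77 for Pcna, while the median over all tested genes was 0.00. A fall to under 50% of the control level (log2 fold change below -1) was called for 9 of the 42, against 8.42% of all tested genes. The 3 heme libraries lay below all 3 control libraries for 23 of the 42 genes, against 34% of all tested genes, and above them for 1, against 34.8%. Without control 1, 22 of the 42 were called lower (31.6% of all tested genes) and 4 higher (32.4%), and the median was -0.37. In the same comparison the heme libraries lay below both remaining controls for 23 genes (37.7% of all tested genes) and above both for 6 (38.6%). Without control 2, in turn, 30 of the 42 were called lower and 1 higher, and the median was -0.77. Over all tested genes that fit called 3754 lower and 3862 higher. Under scaling by raw library size, 31 fell and 1 rose, while 46.8% of all tested genes were called lower and 20.8% higher. The summed level of the 42 genes was 1377, 1526 and 1453 CPM in heme libraries, against 2337, 1371 and 1591 CPM in control libraries, so the sums of the groups overlapped. Pcna and Rfc2 made up a large share of it. Without these genes, which were left out after their values were seen and include the one gene that rose, the sum was 809, 938 and 867 CPM in heme libraries, against 1824, 997 and 1196 CPM in control libraries, and the groups did not overlap.

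**Figure D1:**
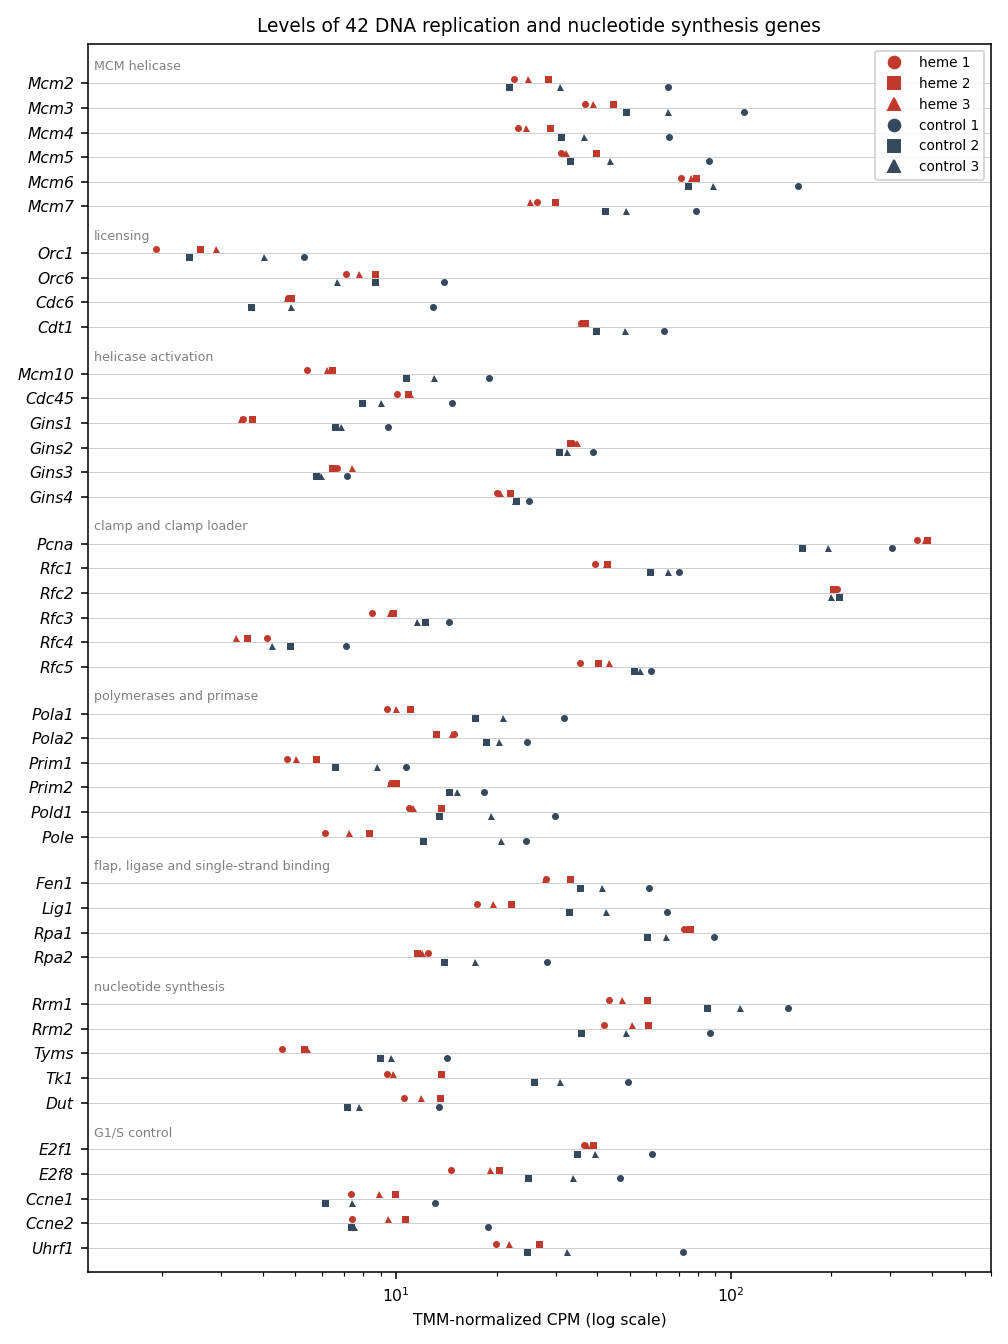
TMM-normalized CPM (log scale) of the 42 genes in 3 heme and 3 control libraries, ordered by role. Each symbol is a library; control 1 (dark circles) is the highest control for 41 of the 42 genes, and the heme libraries lie below all controls for 23 genes.

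**Figure D2:**
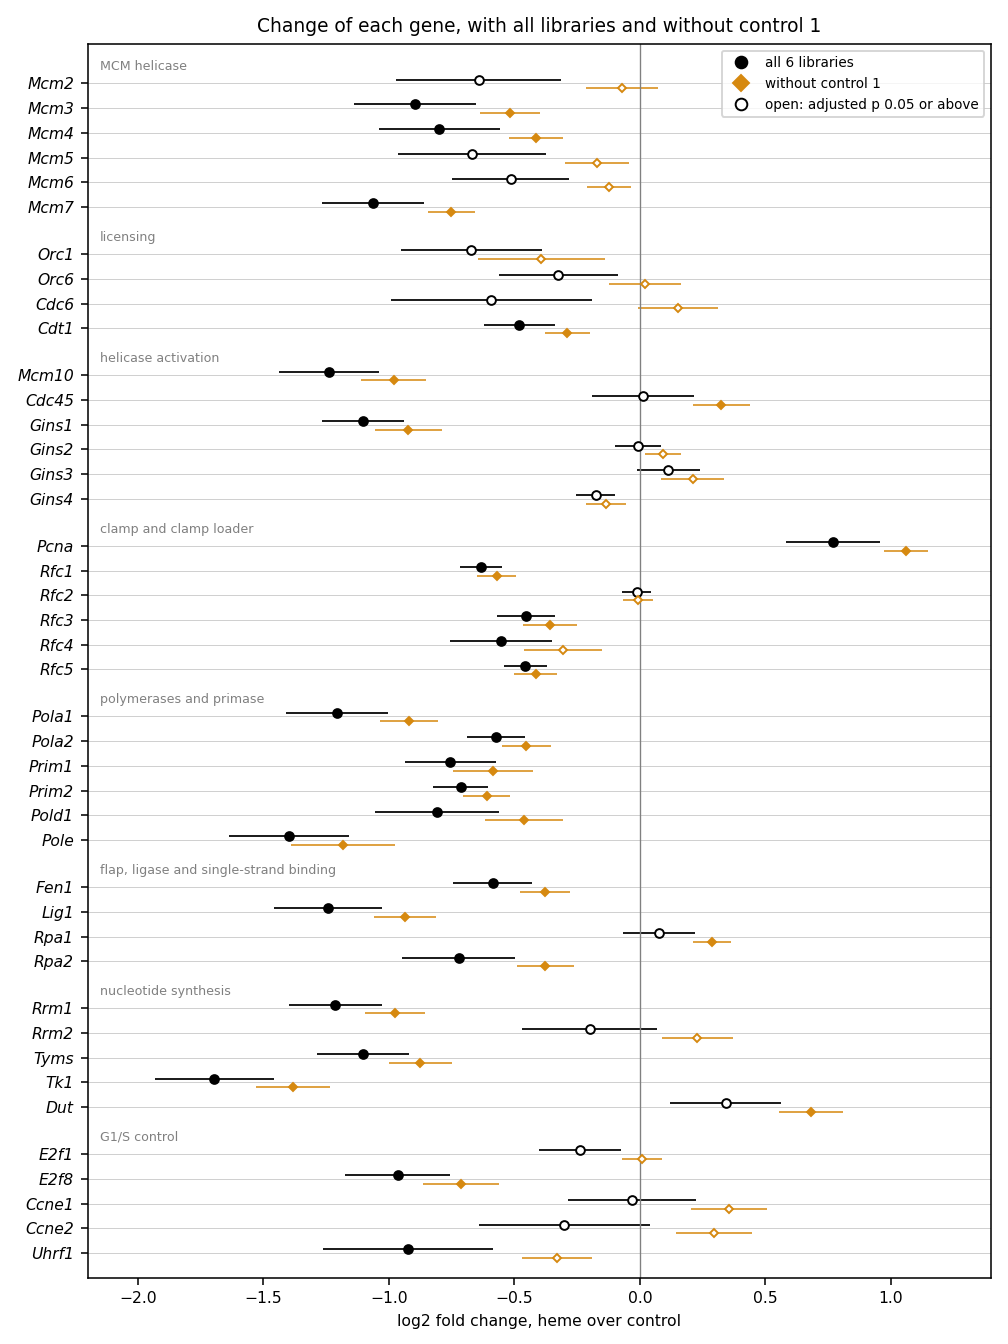
Log2 fold change of heme over control for each gene with all 6 libraries (circles) and without control 1 (diamonds). Bars are standard errors and filled symbols passed an adjusted p of 0.05; 24 genes were called lower with all libraries and 22 without control 1.

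The promoters of these genes share letters that E2F factors are known to bind. Promoter windows from RefSeq on GRCm38.p6, 250 bases before to 50 after a gene's start, were given for 34 of the 42 genes. They were searched on both strands for 4 E2F cores (TTGGCGC as the first, TTCCCGC as the second, TTCGCGC as the third and TTGCCGC as the last), which can overlap each other on opposite strands. A match stood in a window of 21 of the 34 genes (61.8%), against 10.9% of all 27025 genes with a window and 19.5% of the 9534 tested genes with one. By call, 15 of the 20 genes that fell and had a window held a match, as did 6 of the 13 that missed the threshold, and Pcna had none in its window. A match in any window counted, and the genes that fell had 25 windows against 13 for those that missed the threshold. By window the shares were 72.0% and 46.2%. The CCAAT box, searched as CCAAT, stood in a window of 21 of the 34 genes (61.8%), against 41.1% of all genes and 43.1% of tested genes. TTTGAA, the core of the cell cycle homology region (CHR) of mitotic genes, stood in 5 (14.7%), against 20.2% of all genes and 14.4% of tested genes. Among 27 mitosis and spindle genes the shares were 14.8% for the E2F cores and 74.1% for TTTGAA, against 61.8% and 14.7% for the replication genes. A match is a description of letters, not a measured site.

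**Figure D3:**
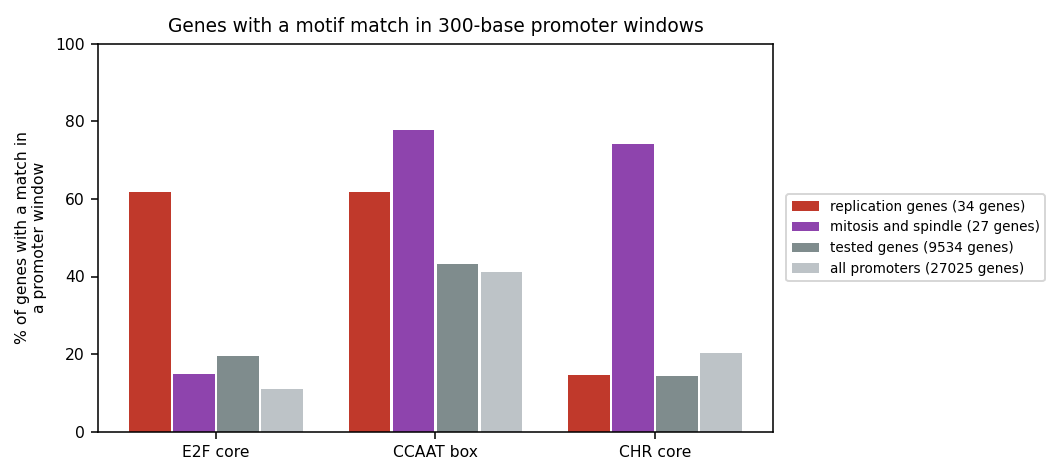
Percent of genes with at least 1 match to the E2F cores, the CCAAT box or the CHR core (TTTGAA) in a RefSeq promoter window of 300 bases, on either strand. The E2F bar is highest for the replication genes (61.8%) and the CHR bar for the mitosis and spindle genes (74.1%).

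Stretches near the start of 8 genes are shown because the results below turn on these genes, 5′ to 3′ on the gene's strand, with matches to the E2F cores in capitals (GRCm38.p6, RefSeq). Mcm6 and Mcm5 carry several matches and missed the threshold, Pola1, Rrm1 and E2f8 carry matches and fell, Rrm2 carries 1 match and missed the threshold, and Tk1 and Pcna carry none in the window and had the largest fall and the only rise.
Mcm6 (chr1:128359736-128359830, minus strand): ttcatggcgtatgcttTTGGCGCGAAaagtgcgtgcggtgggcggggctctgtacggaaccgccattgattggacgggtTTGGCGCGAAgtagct
Mcm5 (chr8:75109334-75109378, plus strand): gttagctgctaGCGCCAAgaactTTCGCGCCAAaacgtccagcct
Pola1 (chrX:93632261-93632335, minus strand): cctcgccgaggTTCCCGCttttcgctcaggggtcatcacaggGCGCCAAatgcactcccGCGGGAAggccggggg
Rrm1 (chr7:102441595-102441664, plus strand): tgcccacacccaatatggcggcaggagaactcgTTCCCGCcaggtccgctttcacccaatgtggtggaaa
Rrm2 (chr12:24708009-24708038, plus strand): accaacctcaGCGGCAAcgcccgcccggcg
E2f8 (chr7:48881672-48881731, minus strand): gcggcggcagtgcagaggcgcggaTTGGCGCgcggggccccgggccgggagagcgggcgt
Tk1 (chr11:117826015-117826114, minus strand): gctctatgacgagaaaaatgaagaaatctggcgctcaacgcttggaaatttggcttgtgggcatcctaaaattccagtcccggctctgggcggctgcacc
Pcna (chr2:132253181-132253280, minus strand): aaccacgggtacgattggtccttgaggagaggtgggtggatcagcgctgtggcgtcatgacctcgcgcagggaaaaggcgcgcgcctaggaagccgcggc

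The replicative helicase is a ring of Mcm2 to Mcm7 with 1 copy of each, and its genes all had lower means with heme, but only Mcm3, Mcm4 and Mcm7 passed the test. Mcm7 had 26.4, 29.8 and 25.2 CPM in heme libraries, against 78.8, 42.3 and 48.6 CPM in control libraries. All 3 heme libraries were below the lowest control, and this was the largest fall of the ring (log2 fold change -1.06, standard error 0.20, adjusted p = 0.00136). It lies on chromosome 5 of GRCm38 (from 138164583 to 138172422), and its exons overlap Cops6 and Ap4m1 on the other strand, where reads of the genes could be told apart only with strand-aware counting. Mcm3 had 36.7, 44.4 and 38.9 CPM in heme libraries, against 109, 48.7 and 65.1 CPM in control libraries. Its groups did not overlap (log2 fold change -0.90, adjusted p = 0.0096), and without control 1 the log2 fold change was -0.52 (adjusted p = 0.00338). Mcm4 had 23.2, 29.0 and 24.4 CPM in heme libraries, against 65.4, 31.2 and 36.4 CPM in control libraries. This fall (-0.80, adjusted p = 0.0159) was -0.41 without control 1 (adjusted p = 0.00592) and missed the threshold without heme 1 or heme 3 (adjusted p = 0.0625 and 0.0561). Mcm2, Mcm5 and Mcm6 stood at -0.64, -0.67 and -0.51 in log2 fold change (adjusted p = 0.116, 0.0733 and 0.08), and in each the groups overlapped. Mcm2 had 22.5, 28.5 and 24.8 CPM in heme libraries, against 65.2, 21.8 and 30.9 CPM in control libraries. Mcm5, with 3 matches in its promoter stretch above, had 31.2, 39.5 and 32.1 CPM in heme libraries, against 86.3, 33.1 and 43.6 CPM in control libraries. Mcm6, whose promoter stretch above holds 2 copies of a double match, had 71.1, 78.8 and 76.3 CPM in heme libraries, against 159, 74.5 and 88.8 CPM in control libraries. In these 3 genes control 1 lay far above every heme library while control 2 lay within or below the heme range, and without control 1 the log2 fold changes were -0.07, -0.17 and -0.12. Without control 2, in contrast, Mcm2, Mcm5 and Mcm6 passed the test (-0.94, -0.93 and -0.73, adjusted p = 0.00765, 0.00547 and 0.00725). Per kb of annotated exon, the ring genes stood in the order Mcm6, Mcm3, Mcm5, Mcm4, Mcm7 and Mcm2 with heme (16.2, 10.7, 8.58, 7.12, 6.13 and 3.63 CPM per kb). In controls Mcm6 was also highest and Mcm2 lowest (23.1 and 5.65 CPM per kb), with Mcm7 (12.8) and Mcm4 (12.4) in the other order and within each other's spread. These levels rest on the union of all annotated exons, which is longer than any 1 transcript.

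Of the licensing genes, which load the ring in G1, only Cdt1 fell. This was 1 of 4 (25%), against 30.8% of all tested genes. Cdt1, the loader that geminin restrains outside G1, had 35.7, 36.7 and 35.8 CPM in heme libraries, against 63.1, 39.5 and 48.2 CPM in control libraries. The groups did not overlap (log2 fold change -0.48, standard error 0.14, adjusted p = 0.0152). The change was -0.29 without control 1 (adjusted p = 0.0152) and missed the threshold without heme 1 or heme 3 (adjusted p = 0.0506 each). Cdc6, the ATPase that works with Cdt1, had 4.75, 4.86 and 4.73 CPM in heme libraries, against 12.9, 3.70 and 4.86 CPM in control libraries. Control 1 alone lay far above the other libraries, and the log2 fold change was -0.59 (adjusted p = 0.223, 95% interval -1.49 to 0.31), 0.15 without control 1 and -0.91 without control 2 (adjusted p = 0.0326). Orc1, the largest and the cell cycle–regulated subunit of the origin recognition complex, was low in all libraries, at 1.92 to 2.90 CPM with heme and 2.42 to 5.30 CPM in controls (log2 fold change -0.67, adjusted p = 0.0622). It passed the test without control 2 (-0.93, adjusted p = 0.00331) and in 4 further alternatives. Orc6, its smallest subunit, had 7.07 to 8.69 CPM with heme and 6.67 to 14.0 CPM in controls and a log2 fold change of -0.32 (adjusted p = 0.26), which was 0.02 without control 1 and -0.54 without control 3 (adjusted p = 0.0484). The exons of Orc6 overlap Vps35 on the other strand, a gene with far more counts.

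Genes of helicase activation split, with 2 of 6 called lower (33.3%, against 30.8% of all tested genes). Mcm10, which is needed to start unwinding at the loaded ring, had 5.42, 6.44 and 6.24 CPM in heme libraries, against 18.9, 10.7 and 13.0 CPM in control libraries. It fell to 42.4% of the control level (log2 fold change -1.24, standard error 0.20, adjusted p = 0.000482; -0.98 without control 1). Gins1, a subunit of the 4-part GINS complex, had 3.50, 3.71 and 3.45 CPM in heme libraries, against 9.45, 6.56 and 6.85 CPM in control libraries. Each heme library was well below each control (log2 fold change -1.10, adjusted p = 0.000292), also without control 1 (-0.92). Its partners Gins2, Gins3 and Gins4 stood at -0.01, 0.11 and -0.18 in log2 fold change (adjusted p = 0.96, 0.456 and 0.0704). The 95% intervals were -0.21 to 0.20 for Gins2, -0.17 to 0.40 for Gins3 and -0.35 to -0.00 for Gins4, each short of the fall estimated for Gins1. Their levels were 6.44 to 7.37 CPM with heme and 5.76 to 7.16 CPM in controls for Gins3, and 20.04 to 21.9 CPM with heme and 22.7 to 24.9 CPM in controls for Gins4, whose groups did not overlap. Gins4 was called lower with upper-quartile factors and under scaling by raw library size. Gins2 had 33.5, 33.2 and 34.8 CPM in heme libraries, against 38.7, 30.6 and 32.4 CPM in control libraries. Of its 4097 exon bases, 2758 overlap Gse1 on the other strand, a gene with more counts (means of 1611 for Gse1 and 1045 for Gins2 per library). Cdc45, the third part of the active helicase, had 10.1, 10.9 and 11.0 CPM in heme libraries, against 14.7, 7.94 and 9.02 CPM in control libraries. Its groups overlapped (log2 fold change 0.01, adjusted p = 0.959), but without control 1 it was called higher (0.32, adjusted p = 0.0267), and its exons overlap Ufd1 on the other strand.

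The sliding clamp gene was the only one of the 42 called higher with all 6 libraries. Pcna, the ring that tethers polymerases to DNA and also serves in repair (chromosome 2 of GRCm38, from 132249162 to 132253314), had 359.8, 386 and 381 CPM in heme libraries, against 303, 163 and 195 CPM in control libraries. It was the most abundant of the 42 genes per kb of exon, at 157 CPM per kb with heme and 91.9 CPM per kb in controls, and every heme library lay above every control. It rose (log2 fold change 0.77, standard error 0.19, adjusted p = 0.00546, and 1.06 without control 1), and remained called in each of the 16 alternative fits. The study's thresholds were read here as an absolute log2 fold change above 0.5 with an edgeR unadjusted p under 0.001. At these Pcna was not called (edgeR unadjusted p = 0.00248). Of the loader genes, 4 of 5 fell. Rfc1, the large subunit of the clamp loader, had 39.2, 42.7 and 42.3 CPM in heme libraries, against 70.2, 57.5 and 65.0 CPM in control libraries, with no overlap (log2 fold change -0.63, standard error 0.08, adjusted p = 0.000129). Rfc3, Rfc4 and Rfc5, small subunits of the same loader, fell, at -0.45, -0.55 and -0.46 in log2 fold change (adjusted p = 0.00715, 0.0377 and 0.00126). Rfc3 had 8.49 to 9.80 CPM with heme and 11.5 to 14.4 CPM in controls, Rfc4 had 3.34 to 4.11 CPM with heme and 4.25 to 7.10 CPM in controls, and Rfc5 had 35.4 to 43.4 CPM with heme and 51.5 to 57.9 CPM in controls, each without overlap. The call of Rfc4 was lost without control 1 (-0.31, adjusted p = 0.108), without heme 1, heme 2 or heme 3 (adjusted p = 0.0533, 0.0939 and 0.124) and with limma-voom (adjusted p = 0.0551). Rfc2, the remaining subunit, had 208, 203 and 204 CPM in heme libraries, against 210.0, 211 and 199.6 CPM in control libraries. All libraries stood within a narrow band (log2 fold change -0.01, adjusted p = 0.861, 95% interval -0.14 to 0.12). Only under scaling by raw library size was Rfc2 called lower (-0.23, adjusted p = 0.00567). The exons of Rfc2, Rfc4 and Rfc5 overlap Lat2, Eif4a2 and Wsb2 on the other strand, each with more counts, and the strand setting of the counting is not given in the sources used here.

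All 6 polymerase and primase genes fell. Pole, the catalytic subunit of the leading-strand polymerase ε, had 6.13, 8.33 and 7.23 CPM in heme libraries, against 24.4, 12.0 and 20.5 CPM in control libraries. It fell to 37.9% of the control level (log2 fold change -1.40, standard error 0.24, adjusted p = 0.000673). Pola1, the catalytic subunit of polymerase α, which extends the primers and whose promoter stretch above holds 3 matches, had 9.40, 11.0 and 10.0 CPM in heme libraries, against 31.9, 17.2 and 20.9 CPM in control libraries. Its groups were well apart (log2 fold change -1.21, adjusted p = 0.000641). Its regulatory subunit Pola2 and the primase subunits Prim1 and Prim2, which make the RNA primers, stood at -0.57, -0.75 and -0.71 in log2 fold change (adjusted p = 0.00189, 0.0048 and 0.000342). Pola2 had 13.2 to 15.0 CPM with heme and 18.5 to 24.7 CPM in controls, Prim1 had 4.71 to 5.77 CPM with heme and 6.59 to 10.7 CPM in controls, and Prim2 had 9.57 to 10.0 CPM with heme and 14.4 to 18.3 CPM in controls. In these 3 genes every heme library lay below every control. Pold1, the catalytic subunit of the lagging-strand polymerase δ, had 10.9, 13.7 and 11.2 CPM in heme libraries, against 29.8, 13.5 and 19.2 CPM in control libraries. Here heme 2 lay just above control 2, so the groups overlapped (log2 fold change -0.81, adjusted p = 0.0172). The value was -0.46 without control 1 (adjusted p = 0.0236), and the call was lost without heme 1 or heme 3 (adjusted p = 0.0651 and 0.0614). The other 5 of these 6 genes were called in each of the 16 alternative fits. Prim1 was not called at the study's thresholds as read here (edgeR unadjusted p = 0.00214).

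Lig1 and Fen1, which finish the lagging strand, fell too. Lig1, the DNA ligase that seals Okazaki fragments, had 17.5, 22.1 and 19.6 CPM in heme libraries, against 64.7, 32.8 and 42.3 CPM in control libraries. It fell to 42.2% of the control level (log2 fold change -1.24, standard error 0.22, adjusted p = 0.000776). Fen1, the nuclease that removes the primer flap before ligation, had 27.9 to 33.1 CPM with heme and 35.4 to 56.9 CPM in controls. Its fall was called as well (-0.59, adjusted p = 0.00893; -0.38 without control 1, adjusted p = 0.00643). Its exons overlap Tmem258 on the other strand. The single-strand binding complex RPA split between its subunits. Rpa2, the middle subunit, had 12.5, 11.5 and 12.0 CPM in heme libraries, against 28.3, 13.9 and 17.2 CPM in control libraries. It was called lower (-0.72, adjusted p = 0.0185; -0.38 without control 1, adjusted p = 0.0136), but not without heme 2 or heme 3 (adjusted p = 0.059 and 0.0557). Rpa1, the large subunit, had 72.4, 75.8 and 73.4 CPM in heme libraries, against 89.4, 56.2 and 64.3 CPM in control libraries. Its groups overlapped through control 1 alone (log2 fold change 0.08, adjusted p = 0.661), and without that library Rpa1 was called higher (0.29, adjusted p = 0.00647).

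Of the 5 nucleotide synthesis genes, Tk1, Rrm1 and Tyms fell, and Rrm2 and Dut missed the threshold. Tk1, the cytosolic thymidine kinase of the salvage route (chromosome 11 of GRCm38, from 117815526 to 117826092), had 9.43, 13.7 and 9.83 CPM in heme libraries, against 49.4, 25.8 and 30.9 CPM in control libraries. It had the largest fall of the 42 genes, to 30.9% of the control level (log2 fold change -1.69, standard error 0.24, adjusted p = 0.000193), and -1.38 without control 1. Tyms, the thymidylate synthase of the de novo route, had 4.58, 5.33 and 5.43 CPM in heme libraries, against 14.2, 8.95 and 9.69 CPM in control libraries (log2 fold change -1.10, adjusted p = 0.000589). Dut, the dUTPase that keeps uracil out of DNA and supplies dUMP to Tyms, had 10.6, 13.5 and 11.9 CPM in heme libraries, against 13.5, 7.13 and 7.74 CPM in control libraries. It was not called with all libraries (0.34, adjusted p = 0.208, 95% interval -0.16 to 0.84), but was called higher without control 1 (0.68, adjusted p = 0.000859). Ribonucleotide reductase, which turns ribonucleotides into deoxyribonucleotides, also split. Rrm1, its large catalytic subunit, had 43.3, 56.3 and 47.4 CPM in heme libraries, against 149, 84.7 and 107 CPM in control libraries. All heme libraries were below all controls (log2 fold change -1.21, standard error 0.18, adjusted p = 0.000324). Rrm2, the small subunit that carries an iron-tyrosyl radical and limits the enzyme outside S phase, had 41.9, 56.6 and 50.6 CPM in heme libraries, against 86.5, 35.8 and 48.6 CPM in control libraries. Heme 2 and heme 3 lay above control 2 and control 3 (log2 fold change -0.20, adjusted p = 0.538, 95% interval -0.80 to 0.40; 0.23 without control 1).

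Of the genes that control entry into S phase, E2f8 and Uhrf1 fell and E2f1, Ccne1 and Ccne2 missed the threshold. The share that fell was 2 of 5 (40%), against 30.8% of all tested genes. E2f8, an atypical E2F that represses S phase genes, had 14.6, 20.3 and 19.1 CPM in heme libraries, against 46.6, 24.9 and 33.7 CPM in control libraries. The groups did not overlap (log2 fold change -0.97, standard error 0.21, adjusted p = 0.00287). E2f1, the classical activator of these genes, had 36.4, 38.7 and 37.3 CPM in heme libraries, against 58.4, 34.7 and 39.4 CPM in control libraries. Its log2 fold change was -0.24 (adjusted p = 0.228, 95% interval -0.61 to 0.13), 0.01 without control 1 and -0.40 without control 2 (adjusted p = 0.0287). Ccne1 and Ccne2, the E cyclins that activate Cdk2 at the G1/S boundary, stood at -0.03 and -0.30 in log2 fold change (adjusted p = 0.921 and 0.461), and 0.36 and 0.30 without control 1. Ccne1 had 7.34 to 9.91 CPM with heme and 6.15 to 13.1 CPM in controls, and Ccne2, whose exons overlap Ints8 on the other strand, had 7.41 to 10.7 CPM with heme and 7.34 to 18.9 CPM in controls. The groups of both overlapped. Uhrf1, which guides the maintenance DNA methyltransferase to newly copied DNA, had 19.9, 26.7 and 21.7 CPM in heme libraries, against 72.3, 24.6 and 32.4 CPM in control libraries. It was called lower (-0.92, adjusted p = 0.0379), but heme 2 lay above control 2, and the call was lost with DESeq2 (adjusted p = 0.101), with limma-voom (0.0789), without control 1 (-0.33, adjusted p = 0.0598) and without heme 1, heme 2 or heme 3 (adjusted p = 0.12, 0.0571 and 0.105). It was also lost in a fit with the replicate number as a block (adjusted p = 0.0611).

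Ratios of 2 genes within a library do not depend on its scaling, and they describe how far the changes of single genes differed. The pairs were chosen after the values were seen and are given as descriptions with no test. Each sets a gene not called lower over a gene called lower, so the direction follows from that choice. Rrm2 over Rrm1, in CPM per kb of exon, was 3.84, 3.99 and 4.25 in heme libraries, against 2.31, 1.68 and 1.81 in control libraries. Gins2 over Gins1 was 3.54, 3.31 and 3.73 with heme, against 1.52, 1.73 and 1.75 in controls, where the Gins2 counts could hold Gse1 reads unless counting was strand-aware. Pcna over Rfc1 was 23.0, 22.7 and 22.6 with heme, against 10.8, 7.12 and 7.54 in controls. In none of these 3 pairs did a heme library overlap a control, and control 1 was the highest control for Rrm2 over Rrm1 and for Pcna over Rfc1 but the lowest for Gins2 over Gins1. Dut over Tyms (means 5.93 ± 0.450 with heme and 2.14 ± 0.216 in controls), Cdc45 over Mcm10 (3.89 ± 0.187 with heme and 1.62 ± 0.0874 in controls), Rpa1 over Rpa2 (3.31 ± 0.209 with heme and 1.96 ± 0.243 in controls) and Ccne1 over E2f8 (0.992 ± 0.0393 with heme and 0.509 ± 0.0633 in controls) did not overlap either (SD, n = 3 libraries per group).

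**Figure D4:**
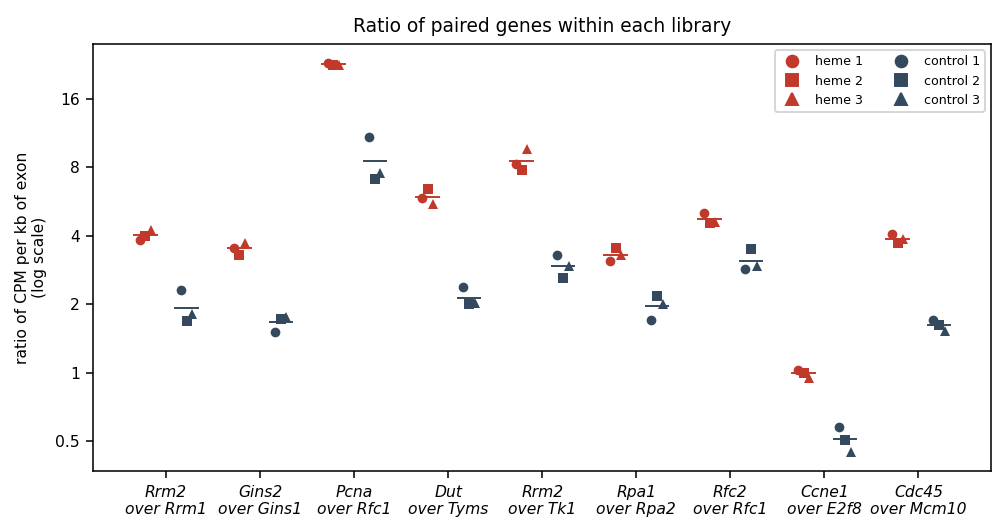
Ratio of the CPM per kb of exon of 2 genes within each library (log scale), with heme libraries left of control libraries in each pair. Lines are group means and symbols are libraries. Pairs were chosen after the values were seen, with a gene called lower as each denominator, so the direction follows from that choice. In all 9 pairs the heme libraries lie above the controls, for example at 3.84 to 4.25 against 1.68 to 2.31 for Rrm2 over Rrm1.

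Other genes of the pathway, from lists that hold none of the 42, also went both ways. Of 34 other replisome and licensing genes, 17 fell (50%, against 30.8% of all tested genes) and 6 rose (17.6%, against 31.7%). The other 11 missed the threshold, and the median log2 fold change was -0.38. Top2a, the topoisomerase that untangles copied chromosomes, fell most (-1.82), before the checkpoint mediator gene Clspn (-1.39) and Chtf18, a subunit gene of an alternative clamp loader (-1.30). Pole4, a small subunit gene of polymerase ε (0.58), and Dna2, a flap nuclease gene (0.46), rose most in this list. Of 22 S phase checkpoint and fork repair genes, 16 fell (72.7%) and 1 rose (4.55%), with a median of -0.74. They include the helicase gene Pif1 (-2.54), the Fanconi anemia gene Fancd2 (-1.79) and Parpbp, the gene of a Parp1-binding protein (-1.70), while the checkpoint kinase gene Atr rose (0.30). Under scaling by raw library size, 1 replisome gene and no checkpoint gene was called higher, against 20.8% of all tested genes.

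In the wider nucleotide list more genes rose than fell. Of 38 other genes of nucleotide synthesis and salvage, 19 rose (50%, against 31.7% of all tested genes) and 8 fell (21.1%, against 30.8%). The other 11 missed the threshold, and the median was 0.30. Under scaling by raw library size 14 rose and 12 fell (20.8% and 46.8% of all tested genes), and the median was 0.08. Without control 1, 24 were called higher and 7 lower, and the median was 0.48. Uck2, a uridine-cytidine kinase gene of pyrimidine salvage, averaged 60.9 ± 3.74 CPM with heme and 14.9 ± 5.99 CPM in controls (SD, n = 3; log2 fold change 2.03). Upp1, a uridine phosphorylase gene, was higher too (3.43), from very few counts in controls. Cmpk2, a mitochondrial nucleotide kinase gene known as interferon-induced, fell most (-4.49), and the deoxynucleoside kinase genes Dck (-0.90) and Tk2 (-0.83) fell. Of the 6 genes of the de novo purine route from Ppat to Atic, singled out after their values were seen, Gart, Adsl and Atic rose (0.61, 0.62 and 1.68), Paics fell (-0.39), and Ppat and Pfas missed the threshold (0.20 and 0.17).

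More regulators and chromatin genes fell than rose with all 6 libraries. Of 29 tested genes of the E2F, DREAM and other G1/S regulators, 15 fell (51.7%, against 30.8% of all tested genes). In this list 3 rose (10.3%, against 31.7%) and 11 missed the threshold (median -0.29). Foxm1, a driver of G2/M genes (-1.91), and the cyclin gene Ccna2 (-1.46) fell most. Myc, a growth-promoting factor gene, rose (1.74), as did E2f6 and E2f4, genes of repressive E2Fs (0.57 and 0.35). Of 13 chromatin assembly and maintenance methylation genes, 6 fell (46.2%) and 1 rose (7.69%), with a median of -0.26 (-0.08 without control 1). The histone chaperone paralogs Asf1b and Asf1a went opposite ways (-1.46 and 1.08), and Chaf1a, the large subunit gene of the chromatin assembly factor, fell (-0.60). Without control 1, 3 chromatin genes were called lower and 3 higher, and without heme 1, heme 2 or heme 3, 3 were lower in each case.

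Mitosis and spindle genes, which peak after replication, fell throughout. All 31 of them fell, against 30.8% of all tested genes. Their log2 fold changes ran from -2.31 for the cyclin gene Ccnb2 to -0.97 for Bub1, with a median of -1.68 against -0.61 for the 42. Without control 1 all 31 fell as well. Their summed level was 478, 628 and 551 CPM in heme libraries, against 1849, 1475 and 1689 CPM in control libraries, and Cenpa (-2.29) and Cenpf (-2.07) were among the largest falls. Control 1 was the highest control for 27 of the 31. It stood less far above the other controls for these genes, with a median ratio of 1.17 against 1.62 for the 42. The summed level of the 42 genes over that of the 31 was 2.88, 2.43 and 2.64 in heme libraries, against 1.26, 0.929 and 0.942 in control libraries, with no overlap; this ratio is a description and was not tested.

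**Figure D5:**
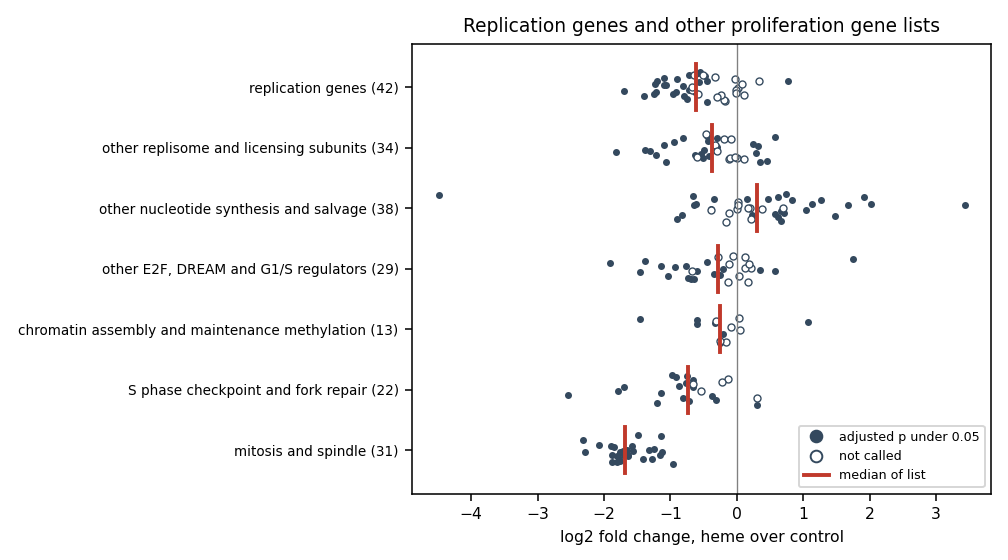
Log2 fold change of heme over control for the 42 replication and nucleotide synthesis genes and for 6 other lists, with the number of tested genes in parentheses. Each point is a gene, filled where its adjusted p was under 0.05, and red bars are medians, from -1.68 for mitosis and spindle to 0.30 for other nucleotide synthesis and salvage.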

How the data were processed

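Total RNA (RIN above 9) of 3 heme and 3 control BMDM cultures was sequenced from stranded libraries. The authors aligned reads with STAR 2.7.0 to GRCm38.p5 and deposited raw counts per gene from featureCounts. For the annotation release, the read filters and the strand setting, the sources used here give nothing. Of 25700 identifiers, 36 had no symbol in GENCODE M21. The deposited counts were tested with edgeR 4.0.16 (R 4.3.3), using filterByExpr with a minimum count of 10, TMM factors, the quasi-likelihood test on condition alone and Benjamini-Hochberg adjustment at 0.05. The fit was checked on simulated counts. Each library came from 1 mouse, but whether same-numbered cultures share a mouse is not stated. Exact permutation of 3 against 3 libraries cannot give a p below 0.1, so single sums and ratios were not tested. A total of 3 counts equals 0.0909 to 0.110 CPM, and intervals cover counting error and the spread between these cultures only.

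Alternatives were DESeq2 1.42.0, limma 3.58.1 (voom), 4 other scalings, other low-count filters, thinned counts, a replicate block, the study's thresholds as read here (absolute log2 fold change above 0.5 with unadjusted p under 0.001) and leaving out each library. The paper's legend does not say whether its p was adjusted, and the p used here came from edgeR. The genes and lists were chosen with earlier results of these data known. All 42 genes are named. Marker genes of cell types were named after their values were seen. From each other list, up to 3 called genes with the largest absolute change and up to 2 of the opposite direction are named, and others are said to be chosen afterwards.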

Additional observations from a re-analysis of the deposited data

How the results depend on the processing

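Of the 24 genes that fell, 18 were called in each of the 16 alternative fits and 6 (Mcm4, Cdt1, Rfc4, Pold1, Rpa2 and Uhrf1) were lost in at least 1. No called gene changed direction in 400 fits, and 23 of 272 fits of the genes not called gave a call. These fits are each gene in each of the 16 alternatives and reuse the same libraries, so they are not independent. Leaving out 1 library gave 18 to 30 genes lower, 1 to 4 higher (4 without control 1) and a median of -0.77 to -0.37, the last without control 1. Over all tested genes it gave 3253 to 3968 lower and 3457 to 4071 higher. In the other lists the same step gave 3 to 7 chromatin genes lower and 1 to 3 higher, and 0 to 2 checkpoint genes higher. With library sizes alone the median of the 42 was -0.84, 1 replisome gene and 0 checkpoint genes were higher, and 5814 of all genes were lower and 2580 higher. With limma-voom 2 checkpoint genes were higher. At an absolute log2 fold change above 0.5 with unadjusted p under 0.001, 12 of the 42 were lower and 0 higher. The same thresholds gave 6 lower and 1 higher replisome genes, 5 lower and 12 higher nucleotide genes, 9 lower and 1 higher regulators, 1 lower chromatin gene, 10 lower and 0 higher checkpoint genes, and 1851 lower and 2142 higher of all genes.

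Same-numbered libraries did not deviate together (residual correlations of -0.0998, -0.142 and -0.0683), so the numbers were not taken as pairs. With the replicate block 23 of the 42 were lower and 1 higher, with a median of -0.56. The groups hold 3 cultures each. Without control 1, 16 of the 42 were not called, against 17 with all libraries. The cause of these dependencies was not tested.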
